A study of Mus musculus with 9 samples.

Results

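EGR1, EGR2 and EGR3 are zinc finger transcription factors, and NR4A1 (Nur77), NR4A2 (Nurr1) and NR4A3 (Nor1) are orphan nuclear receptors. Their transcripts were followed through every probe set annotated to these 6 genes on Affymetrix mouse expression arrays, that is 15 of 45101 probe sets: 1 each for Egr1 and Nr4a1, 2 each for Egr2 and Egr3, 3 for Nr4a3 and 6 for Nr4a2. The RNA came from cumulus cells, the granulosa cells that enclose the oocyte, of 3 genotypes of female mice on a mixed B6/129 background: DM, which lacked BMP15 and carried 1 intact copy of Gdf9 (Bmp15-/-Gdf9+/-); Bmp15-/-, which lacked BMP15 with both copies of Gdf9 intact as far as the labels say; and wildtype. Every genotype was represented by 3 arrays, and each array by a separate pool of 75 to 100 complexes from 3 to 4 mice. All mice were 4 to 5 months old and had received 5 IU of equine chorionic gonadotropin 48 hours earlier, and all complexes were handled in medium with 5 µM milrinone. Because pools of cells were measured, fewer cells making a transcript and less transcript per cell cannot be told apart.

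Immediate early genes are switched on within minutes of a stimulus without new protein synthesis, mainly through cAMP and the factor CREB, and through MAP kinases that act on the serum response factor SRF. EGR proteins bind GC-rich sites and are held in check by the corepressors NAB1 and NAB2. NR4A receptors need no known ligand to be active, so their activity follows how much of them is made, and they bind DNA alone or, for NR4A1 and NR4A2, with the retinoid X receptors. In granulosa cells the ovulatory surge of luteinizing hormone is known to induce members of both families briefly.

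The stretches just upstream of the annotated starts are shown because the transcripts of both families are known targets of CREB and SRF. Sequences are from RefSeq, build GRCm38.p6, each read 5′ to 3′ on the gene's strand and covering the 250 bases before an annotated start. Capitals mark the core TGACG of the cAMP response element on either strand (CGTCA on the other) and the CArG box bound by SRF.
Nr4a1, chr15:101266596-101266845, plus strand: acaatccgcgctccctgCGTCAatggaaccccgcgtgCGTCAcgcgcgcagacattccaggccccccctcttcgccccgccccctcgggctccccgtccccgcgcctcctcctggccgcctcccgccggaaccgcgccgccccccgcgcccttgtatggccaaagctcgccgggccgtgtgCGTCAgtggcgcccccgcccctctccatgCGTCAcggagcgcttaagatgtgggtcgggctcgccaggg
Nr4a2, chr2:57124004-57124253, minus strand: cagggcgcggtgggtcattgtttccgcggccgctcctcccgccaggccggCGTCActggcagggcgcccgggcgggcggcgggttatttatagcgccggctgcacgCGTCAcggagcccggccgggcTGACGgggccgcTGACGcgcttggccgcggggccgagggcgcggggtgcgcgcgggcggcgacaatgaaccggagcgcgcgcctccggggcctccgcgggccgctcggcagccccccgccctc
Nr4a3, chr4:48045055-48045304, plus strand: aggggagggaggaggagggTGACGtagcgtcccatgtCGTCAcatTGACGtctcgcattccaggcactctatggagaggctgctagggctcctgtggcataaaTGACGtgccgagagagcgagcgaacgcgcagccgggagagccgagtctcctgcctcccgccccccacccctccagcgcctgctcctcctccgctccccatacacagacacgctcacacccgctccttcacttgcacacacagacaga
Egr2, chr10:67537619-67537868, plus strand: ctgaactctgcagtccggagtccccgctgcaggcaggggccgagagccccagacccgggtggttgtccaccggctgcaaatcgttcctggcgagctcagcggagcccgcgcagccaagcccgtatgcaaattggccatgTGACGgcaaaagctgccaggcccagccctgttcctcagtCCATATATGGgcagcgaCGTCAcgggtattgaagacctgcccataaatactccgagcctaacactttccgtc
Egr4, chr6:85513590-85513839, minus strand: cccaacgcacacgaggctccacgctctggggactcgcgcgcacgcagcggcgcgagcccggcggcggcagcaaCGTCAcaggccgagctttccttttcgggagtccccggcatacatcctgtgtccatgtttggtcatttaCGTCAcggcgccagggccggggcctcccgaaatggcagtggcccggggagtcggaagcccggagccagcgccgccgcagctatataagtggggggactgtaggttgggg
Each of the 3 Nr4a windows held 4 copies of the core, whereas at least 4 were found in 0.137% and at least 1 in 17.8% of 32851 such windows over all genes. Egr2 has 5 annotated starts, and the window printed, 1 of 3 with starts within 61 bases of each other, held 2 cores and 1 CArG box, at least 2 cores being found in 3.9% and a box in 1.47% of all windows. These 3 windows overlap, and of the other 2 one held a CArG box and no core and the other neither. Egr4, shown as the EGR gene outside the 6, held 2 cores and no CArG box. No window is shown for Egr1 or Egr3. None of these windows held the full element TGACGTCA, present in 1.55% of all windows, the NR4A site AAAGGTCA (1.34%) or the EGR site GCGTGGGCG (0.536%), searched on both strands. A match describes the letters in this window, and no binding was measured.

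Array values are on a log2 scale that runs from 2.87 to 14.53, and no level of one probe set can be set against that of another. Correlations over all probe sets were at least 0.988 between arrays of the same genotype and at least 0.975 between genotypes. Of 10 listed cumulus markers, 1 had no probe set annotated to it alone and the other 9 passed the filter on dim signal. Their values ran from 6.07 (Amh) to 13.44 (Fst). The filter asked for at least 3 of 9 arrays above the 40th percentile of their own array. Bmp15, an oocyte transcript, was at the mutants' level on wildtype array 1 (5.10) and higher on wildtype arrays 2 and 3 (9.58 and 8.41), against 5.05 to 5.09 in DM and 5.08 to 5.10 in Bmp15-/- for the same probe set, so its low level in mutants checks the labels only where oocyte RNA is present. The 3′ minus 5′ difference of the Gapdh control probe sets, a measure of how far amplification favoured transcript ends, was 0.792 to 0.953 in DM, 0.663 to 0.728 in Bmp15-/- and 0.525 to 0.586 in wildtype. For the Actb control probe sets the same difference was 1.85 to 2.12 in DM, 1.85 to 1.92 in Bmp15-/- and 1.87 to 1.90 in wildtype. The Gapdh difference was highest in DM and lowest in wildtype without overlap, whereas the Actb difference overlapped between genotypes. Below, Egr2 and the Egr3 probe set 1436329_at had the Gapdh order without overlap. In their highest probe sets Egr1 and Nr4a1 had this order in their means only, and Nr4a2 and Nr4a3 did not have it. Within DM the Gapdh difference was highest on array 2 (0.953), where the members called in DM were lowest. Within wildtype it was lowest on array 2 (0.525), where these members were lowest too. Within Bmp15-/- it was also lowest on array 2 (0.663), where the members' median lay between those of the other arrays. The part of either difference in the members' levels was not tested. The labels give no collection day or time for the pools, so no batch could be examined.

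Egr2 and Egr3 transcripts were higher in both mutants than in wildtype. Egr2 rose 4.25-fold in DM and 2.99-fold in Bmp15-/-, and the responding probe set of Egr3 rose 24.8-fold in DM and 8.17-fold in Bmp15-/-. Egr1, the founding member of the family, was near the top of the scale on all 9 arrays and was not called in either mutant. Changes are from 1 limma fit over all 27954 probe sets that passed a filter on dim signal, and a probe set was called at a Benjamini-Hochberg adjusted p under 0.05 over all of them.

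Egr1 (GRCm38.p6, chromosome 18, 34861207 to 34864956) had log2 values of 14.28, 14.12 and 14.13 in DM, 14.07, 14.13 and 14.04 in Bmp15-/- and 13.98, 13.76 and 13.95 in wildtype. All mutant arrays lay above all wildtype arrays, but the differences were small, at 0.28 ± 0.09 (SE) log2 units in DM (adjusted p = 0.055) and 0.18 ± 0.09 in Bmp15-/- (adjusted p = 0.259). The highest value of any probe set was 14.53. Whether signal near that level limits the change seen for Egr1 was not tested. In DM it was called at adjusted p between 0.00929 and 0.0481 under 5 of 19 alternative settings, among them 1 probe set per gene.

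Egr2 (chromosome 10, 67534469 to 67542188), known for its role in myelinating glia and in T cells, had values of 13.17, 12.77 and 12.96 in DM, 12.52, 12.48 and 12.36 in Bmp15-/- and 11.74, 9.90 and 10.98 in wildtype in its brighter probe set. The 3 genotypes did not overlap, with DM highest and wildtype lowest. The rise was 2.09 ± 0.37 log2 units in DM (adjusted p = 0.00461) and 1.58 ± 0.37 in Bmp15-/- (adjusted p = 0.0402). Its second probe set rose by 2.35 ± 0.39 in DM (adjusted p = 0.00354) and 1.63 ± 0.39 in Bmp15-/- (adjusted p = 0.0437). The DM call held for both probe sets under every alternative run, whereas the Bmp15-/- call was lost under 7 of 19 alternatives for the brighter and 9 of 17 for the second, at adjusted p up to 0.112 and 0.126.

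Egr3 (chromosome 14, 70077317 to 70082613), like Egr2 induced by T cell receptor signalling, had values of 10.33, 9.02 and 10.40 in DM, 8.48, 7.96 and 8.51 in Bmp15-/- and 6.43, 4.33 and 5.09 in wildtype in probe set 1436329_at. Again the genotypes did not overlap, and the lowest DM array lay above the highest Bmp15-/- array. The rise was 4.63 ± 0.52 log2 units in DM (adjusted p = 0.000615), the second largest of the 27954 probe sets, and 3.03 ± 0.52 in Bmp15-/- (adjusted p = 0.0138), the third largest. Wildtype array 2 was below the 40th percentile of its array, at a mean cutoff of 5.02. Wildtype array 3, at 5.09, lay just above its own cutoff of 4.99. The fold therefore rests in part on dim signal. The DM call held under all 19 alternatives, and the Bmp15-/- call was lost without wildtype array 3 (adjusted p = 0.0554) and without Bmp15-/- array 3 (adjusted p = 0.0598).

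Egr4, the remaining EGR gene, had values of 6.35 to 6.68 in DM, 6.50 to 6.92 in Bmp15-/- and 6.65 to 6.77 in wildtype. These overlapped, and the difference was -0.14 in DM (95% interval -0.44 to 0.16) and -0.01 in Bmp15-/- (-0.31 to 0.29).

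All 3 Nr4a transcripts rose in DM, and Nr4a3 also in Bmp15-/-. The rise of Nr4a2 was called only in the brightest of its 6 probe sets, and that call was lost under 6 of 19 alternatives. The rises were 4.85-fold for Nr4a1, 2.08-fold for the brightest of 6 probe sets of Nr4a2 and 9.96-fold for the responding probe set of Nr4a3 in DM, and 11.5-fold for Nr4a3 in Bmp15-/-. Nr4a1 and Nr4a2 had log2 differences of 1.67 and 1.21 in Bmp15-/- that were not called, and 0.92 and 0.86 without wildtype array 2.

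Nr4a1 (GRCm38.p6, chromosome 15, 101253902 to 101274795), which is known in gonadal cells as a regulator of steroidogenic enzymes, had values of 11.17, 10.67 and 11.02 in DM, 9.98, 10.32 and 10.74 in Bmp15-/- and 9.70, 7.18 and 9.14 in wildtype. Every mutant array exceeded every wildtype array, with wildtype array 1 closest to them. The rise in DM was 2.28 ± 0.54 log2 units (adjusted p = 0.0158), lost without DM array 1 (adjusted p = 0.0505), and it was 1.53 (2.89-fold, adjusted p = 0.00871) without wildtype array 2. In Bmp15-/- the difference was 1.67 ± 0.54 (95% interval 0.45 to 2.89, adjusted p = 0.1), and it was called under none of 19 alternatives. Without wildtype array 2 it was 0.92, or 1.9-fold.

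Nr4a2 (chromosome 2, 57106830 to 57124003), known for its role in dopamine neurons, had values of 10.40, 9.55 and 10.13 in DM, 10.03, 10 and 10.48 in Bmp15-/- and 9.36, 8.28 and 9.27 in wildtype in probe set 1455034_at. The mutants overlapped each other and both lay above wildtype. The rise in DM was 1.06 ± 0.31 (adjusted p = 0.0354), lost under 6 of 19 alternatives, and the difference in Bmp15-/- was 1.21 ± 0.31 (adjusted p = 0.0521), called under 8 of 19. For Nr4a2 the outcome at the threshold thus depended on the setting in both mutants, while the sign was positive under all 19.

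Nr4a3 (chromosome 4, 48045078 to 48086447) had values of 10.39, 7.42 and 8.90 in DM, 9.08, 8.74 and 9.51 in Bmp15-/- and 5.26, 4.51 and 6.98 in wildtype in probe set 1438796_at. The mutant arrays all lay above the wildtype arrays, and DM held both the highest and the lowest mutant value. The rise was 3.32 ± 0.76 in DM (adjusted p = 0.0139) and 3.52 ± 0.76 in Bmp15-/- (adjusted p = 0.0311). The DM rise was 5.95-fold without DM array 1 and 16.7-fold without DM array 2. Without wildtype array 1, 2 or 3 it was 8.91-fold, 6.87-fold and 16.2-fold. The Bmp15-/- rise was 10.3-fold, 7.92-fold and 18.6-fold without wildtype array 1, 2 or 3. Without wildtype array 1 or 2 the DM call was lost at adjusted p = 0.0505 and 0.0524. The Bmp15-/- call was lost without either of these arrays or any single Bmp15-/- array, at adjusted p up to 0.111. Wildtype array 2 was below the 40th percentile, and wildtype array 1, at 5.26, was not far above its cutoff of 5.01. This fold too rests in part on dim signal.

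**Figure D1:**
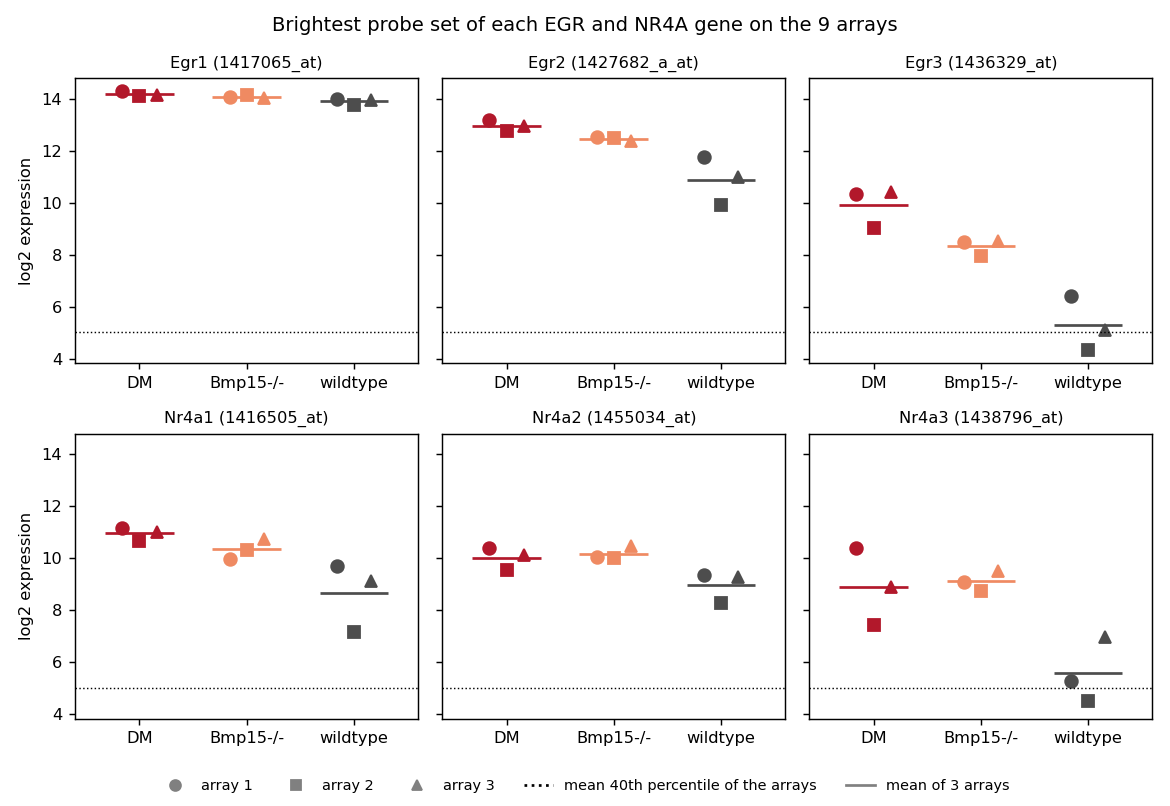
Log2 expression (y axis) of the highest of the tested probe sets of each gene on 3 DM, 3 Bmp15-/- and 3 wildtype arrays. Points are single arrays with the marker giving the array number, bars are means of 3 arrays, and the dotted line is the mean 40th percentile of the arrays; levels are not comparable between panels. Wildtype array 2 is the lowest of its genotype in all 6 panels, and Egr1 lies near the top of the scale on every array.

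Of the 14 tested member probe sets, 6 rose and 0 fell in DM against wildtype, where 8.1% of all tested probe sets rose and 16.2% fell. In Bmp15-/- against wildtype 4 rose and 0 fell, where 2.05% of all rose and 4.27% fell. The member probe sets had a median difference of 0.61 in DM and 0.62 in Bmp15-/-, against -0.06 and -0.04 over all tested probe sets. In 7 of 14 all DM arrays lay above all wildtype arrays, against 14.8% of all probe sets, and in 8 of 14 all Bmp15-/- arrays did, against 12.3%. Each of the 14 exceeded the 40th percentile on at least 8 of 9 arrays, the missing one being wildtype array 2 for Egr3 (1436329_at), Nr4a3 (1438796_at) and Nr4a2 (1450750_a_at). Both comparisons use the same 3 wildtype arrays. One Nr4a3 probe set, 1421079_at, lay between 3.51 and 3.95 on all arrays and was not tested.

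Wildtype array 2 was the lowest wildtype array in all 6 probe sets called in DM, and DM array 2 the lowest DM array in all 6. Without wildtype array 2, 4 of 14 probe sets were called in DM and 2 of 14 in Bmp15-/- (those of Egr3 (1436329_at) and Egr2, 1427682_a_at). Without that array 15.8% of all probe sets were called in DM and 2.14% in Bmp15-/-, against 24.3% and 6.32% with it. Without wildtype array 2 and DM array 2 together, a setting chosen after the values were seen, 6 were called in DM and 4 in Bmp15-/-.

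The comparison of DM with Bmp15-/- asks what the loss of 1 Gdf9 copy adds where BMP15 is absent. Among the members, Egr3 had the largest difference, 1.60 ± 0.52 log2 units (95% interval 0.42 to 2.78, adjusted p = 0.154). For both Egr2 probe sets the DM arrays also exceeded all Bmp15-/- arrays, with mean differences of 0.51 (-0.33 to 1.35) and 0.72 (-0.17 to 1.60). The differences for Nr4a1, Nr4a2 and Nr4a3 were 0.61 (-0.61 to 1.83), -0.15 (-0.84 to 0.55) and -0.20 (-1.93 to 1.52), with overlapping arrays. With limma 0 of 14 member probe sets were called, 1 at an unadjusted p under 0.05, where 1.92% of all tested probe sets were called and 18.5% had such an unadjusted p. In 3 of 14 every DM array lay above every Bmp15-/- array, against 8.33% of all. Without wildtype array 2 and DM array 2 together, Egr3 was called at 2.05 log2 units (adjusted p = 0.042).

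**Figure D2:**
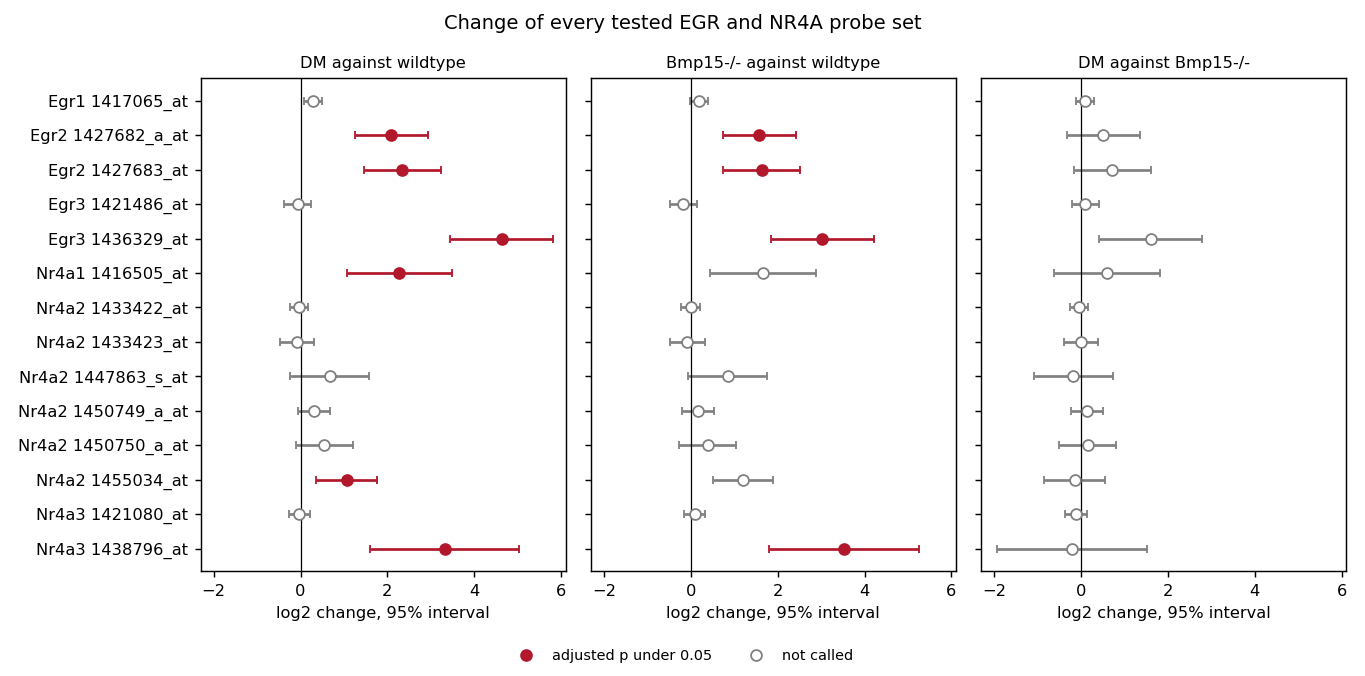
Log2 change with its 95% interval (x axis) of the 14 tested EGR and NR4A probe sets in DM against wildtype, Bmp15-/- against wildtype and DM against Bmp15-/-, from the limma fit over all 9 arrays. Filled red points are called at an adjusted p under 0.05: 6 in the first panel, 4 in the second and 0 in the third. For Egr3, Nr4a2 and Nr4a3 some probe sets of the gene lie at 0 while another lies well above it.

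Probe sets of 1 gene agreed for Egr2 and disagreed for Egr3 and Nr4a3. Those of Egr2 ranked the 9 arrays identically (Pearson's r = 0.99, Spearman's rho of 1.0, as a description of the same 9 samples). For Egr3, the second probe set, 1421486_at, had values of 6.44 to 6.62 in DM, 6.14 to 6.62 in Bmp15-/- and 6.48 to 6.78 in wildtype, with differences of -0.07 (-0.39 to 0.25) in DM and -0.17 (-0.49 to 0.15) in Bmp15-/-. Its r with the responding probe set was -0.03. It spanned 0.65 log2 units over all 9 arrays, against 6.08 for the responding one.

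Nr4a3 showed the same division. Probe set 1421080_at stayed between 5.59 and 6.00, with a difference of -0.03 (-0.27 to 0.22) in DM and 0.09 (-0.16 to 0.33) in Bmp15-/-, and 1421079_at was dim on all 9 arrays. For Nr4a2, 1447863_s_at and 1450750_a_at followed 1455034_at over the 9 arrays (r = 0.88 and 0.83), with differences of 0.68 (-0.23 to 1.59) and 0.54 (-0.11 to 1.20) in DM and 0.85 (-0.06 to 1.76) and 0.39 (-0.26 to 1.05) in Bmp15-/-, none called. The other 3, 1433422_at, 1433423_at and 1450749_a_at, had r of -0.24, 0.11 and 0.33 with it and differences between -0.08 and 0.32 in DM and between -0.08 and 0.17 in Bmp15-/-. Where on the transcript each probe set lies was not used here. When the tested probe sets of a gene were averaged, the Egr3 change in DM was 2.28 (adjusted p = 0.00061) and in Bmp15-/- 1.43 (adjusted p = 0.0191), that of Nr4a3 was 1.65 (adjusted p = 0.0099) and 1.80 (adjusted p = 0.0189), and that of Nr4a2 was 0.41 (adjusted p = 0.0976) and 0.42 (adjusted p = 0.146). The size of the fold for Egr3, Nr4a2 and Nr4a3 therefore depends on which probe set is read.

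Wildtype arrays scattered widely in these genes. The SD over the 3 wildtype arrays was 0.93 for Egr2, 1.07 for Egr3, 1.32 for Nr4a1, 0.60 for Nr4a2 and 1.27 for Nr4a3 in their highest probe sets, against a median of 0.11 and a 95th percentile of 0.35 over all tested probe sets. For Egr2 this SD stood at the 99.9th percentile of all tested probe sets, and for Nr4a2 at the 99.2nd. Egr1 was the exception, with an SD of 0.12.

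The mutants scattered less in several of them. Over the 3 Bmp15-/- arrays the SD was 0.08 for Egr2, 0.31 for Egr3, 0.38 for Nr4a1, 0.27 for Nr4a2 and 0.39 for Nr4a3, all below the 95th percentile of 0.40 in that genotype. In DM it was 0.20 for Egr2, 0.26 for Nr4a1 and 0.43 for Nr4a2, below that genotype's 95th percentile of 0.53, and 0.78 for Egr3 and 1.49 for Nr4a3, above it. The fit shares 1 spread between genotypes, and whether the spreads differ was not tested. Set against the mean of the other 2 arrays of its genotype, wildtype array 2 was lower by between 1.03 (Nr4a2) and 2.24 (Nr4a1) log2 units, and DM array 2 by between 0.30 (Egr2) and 2.23 (Nr4a3).

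**Figure D3:**
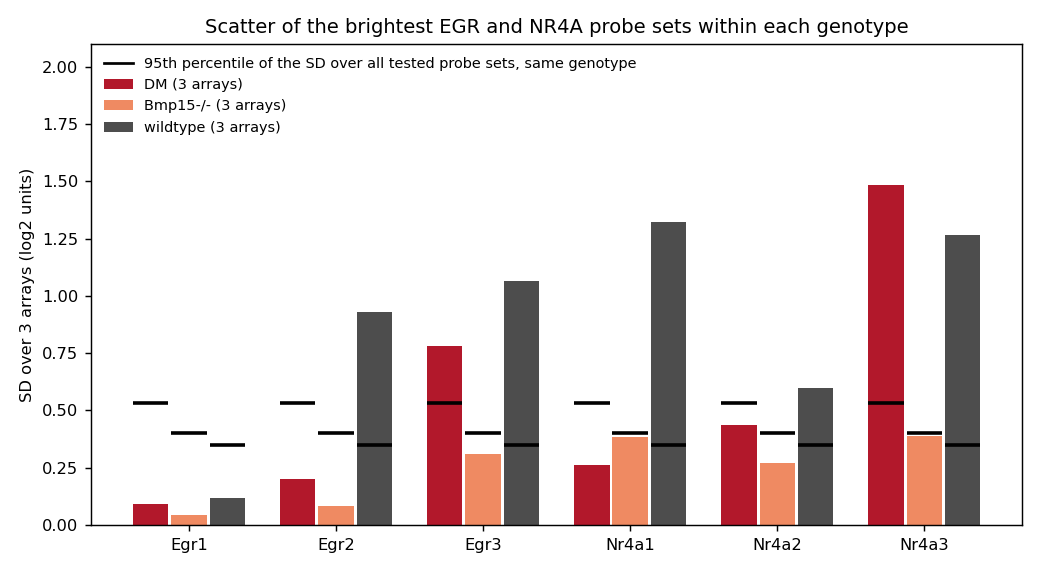
SD over 3 arrays in log2 units (y axis) of the highest probe set of each gene in DM, Bmp15-/- and wildtype; black lines give the 95th percentile of the SD over all tested probe sets in the same genotype. In wildtype 5 of the 6 genes exceed that line, in Bmp15-/- none does, and in DM Egr3 and Nr4a3 do.

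The 6 genes varied together over the 9 arrays. The 15 pairs of their highest probe sets had Pearson's r between 0.82 and 0.97, and between 0.38 and 0.91 after each genotype's mean was subtracted. Egr2 and Nr4a1 were the closest pair by both measures (0.97 and 0.91), and Egr2 and Nr4a3 the least close within genotypes. These are descriptions over 9 arrays that share the genotype difference and the low values of wildtype array 2.

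By likeness over the same 9 arrays among 13453 genes, each read by its highest probe set, Egr2 was nearest to the zinc finger factor Klf6 (r = 0.99), the mRNA decay factor Zfp36 (0.98) and the ERK phosphatase Dusp6 (0.98). Klf6 had values of 13.03, 12.72 and 12.88 in DM, 12.80, 12.76 and 12.79 in Bmp15-/- and 12.25, 11.12 and 11.78 in wildtype. Because Klf6 was picked for this likeness, its shared lift in the mutants and low value on wildtype array 2 follow from the choice. Nr4a1 was nearest to Foxj3, the matricellular gene Ccn1 and the antiproliferative factor Tob1 (r of 0.97, 0.96 and 0.96), and Egr1 to Foxj3, Gas5 and Zfp36 (each 0.97). Egr3 was nearest to the choline dehydrogenase Chdh (0.99), Dcaf12l1 (0.98) and the caveolar protein Cavin2 (0.98), and Nr4a2 to Rassf1 (0.98), Klf10 (0.97) and the kinase Sgk1 (0.97). Nr4a3 was nearest to Slc6a19os, Cpeb2 (each 0.98) and Yod1 (0.97).

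Genes that act with or upstream of the members were read from lists, each gene by its highest tested probe set. Over all 13453 genes so read, 25.8% were called in DM against wildtype and 6.92% in Bmp15-/- against wildtype, with median differences of -0.06 and -0.04. The shares at an unadjusted p under 0.05 were not computed for these comparisons and can only be as large or larger. List counts at that threshold therefore have no background share beside them. The corepressors Nab1 and Nab2 were not called in either mutant, with differences of 0.14 (-0.09 to 0.38) and 0.23 (-0.12 to 0.58) in DM and 0.01 and -0.05 in Bmp15-/-. The retinoid X receptors Rxra, Rxrb and Rxrg were not called either, with differences between -0.03 and 0.34 in DM and between -0.19 and 0.24 in Bmp15-/-.

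Srf, which binds the CArG box, rose by 1.38 ± 0.24 in DM (adjusted p = 0.00415), with values of 10.01, 9.21 and 9.69 in DM and 8.52, 7.74 and 8.50 in wildtype, and wildtype array 2 again lowest. Of the 6 genes listed for SRF and its cofactors, the coactivator Mrtfb also rose (0.41 ± 0.11; a second probe set had -0.03, adjusted p = 0.843) and Mrtfa fell (-0.89 ± 0.22) in DM, and 0 were called in Bmp15-/- with limma, against 3 at an unadjusted p under 0.05. Of 7 tested genes of the CREB family and its coactivators 0 were called in either mutant with limma, against 0 in DM and 2 in Bmp15-/- at an unadjusted p under 0.05. Of 13 genes for cAMP and protein kinase A, 2 rose and 4 fell in DM and 2 fell in Bmp15-/-. Those with the smallest p in DM were the phosphodiesterase Pde8a (-0.99 ± 0.11), the cyclase Adcy6 (0.73 ± 0.09) and the regulatory subunit Prkar2a (-0.92 ± 0.11), and the 2 that fell in Bmp15-/- were Prkar2a (-0.47 ± 0.11) and the cyclase Adcy3 (-0.65 ± 0.16). Of 4 tested ERK pathway kinases 1 fell in DM, Rps6ka3 (-0.47 ± 0.13), and 0 were called in Bmp15-/- with limma, against 1 at an unadjusted p under 0.05.

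Among 7 tested genes known as EGR targets in other cells, 2 rose in DM, tissue factor F3 (0.76 ± 0.19) and the growth factor Pdgfa (0.97 ± 0.17), and 1 in Bmp15-/-, F3 (1.14 ± 0.19). The list median was 0.23 in DM and 0.29 in Bmp15-/-. Among 7 tested genes known as NR4A targets, 1 rose in each mutant. This was Hsd3b1, which makes progesterone, with values of 13.36, 13.36 and 12.96 in DM, 13.29, 13.25 and 13.37 in Bmp15-/- and 12.30, 12.14 and 12.51 in wildtype, a rise of 0.91 ± 0.13 in DM (adjusted p = 0.00199) and 0.99 ± 0.13 in Bmp15-/- (adjusted p = 0.00588). Star, which carries cholesterol into mitochondria, was not called, at 0.24 in DM and 0.32 in Bmp15-/-.

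Other immediate early genes rose beside the EGR and NR4A genes. Of 18 other immediate early transcription factors, 9 rose and 0 fell in DM, and 5 rose and 0 fell in Bmp15-/-, with medians of 0.93 and 0.62. The Bmp15-/- count was 1 without wildtype array 2 or 3 or any single Bmp15-/- array, and the DM count was 8 to 13 over the alternatives. Over all genes read this way, 9.19% rose and 16.6% fell in DM, and 2.59% rose and 4.33% fell in Bmp15-/-. Those with the smallest p in DM were Fosl2 (1.23 ± 0.19), Atf3 (2.35 ± 0.43) and Junb (1.07 ± 0.20), and in Bmp15-/- Fosl2 (1.31 ± 0.19), Maff (1.50 ± 0.32) and Atf3 (1.94 ± 0.43). Fos, like Egr1, was near the top of the scale, at 13.96, 13.82 and 13.87 in DM, 13.90, 13.89 and 13.83 in Bmp15-/- and 13.73, 13.32 and 13.68 in wildtype, and was not called; it was picked for its level after the values were seen. Of 15 further immediate early genes, 6 rose and 0 fell in DM, and 3 rose and 0 fell in Bmp15-/-, the last count being 1 without Bmp15-/- array 1 or 3. Ccn2 rose by 1.87 ± 0.18 in DM and 1.39 ± 0.18 in Bmp15-/-, Dusp6 by 2.11 ± 0.41 and 1.81 ± 0.41, Ccn1 by 1.72 ± 0.27 in DM, and Ptgs2, the prostaglandin synthase, by 2.09 ± 0.44 in Bmp15-/-.

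The wildtype scatter ran through these lists too. Relative to wildtype means, the median of the 6 members was 2.39, 1.86 and 2.22 for DM, 1.47, 1.62 and 1.79 for Bmp15-/- and 0.63, -0.97 and 0.20 for wildtype. For the 18 other immediate early transcription factors it was 0.64 to 1.26 in DM, 0.64 to 0.75 in Bmp15-/- and 0.26, -0.47 and 0.10 in wildtype. Wildtype array 2 was thus lowest in both lists. Heat shock genes, read as a sign of stress during isolation, had list medians between -0.06 and 0.05 on all 9 arrays. In DM 2 of 11 rose with limma (Hspa1b, 0.74 ± 0.21, and Dnaja1, 0.51 ± 0.16), with 6 of 11 at an unadjusted p under 0.05. In Bmp15-/- 0 were called with limma, against 1 at an unadjusted p under 0.05. The share of all genes at that unadjusted threshold was not computed, so these counts cannot be set against it. The DM count of called genes ranged from 0 to 4 over the alternatives. It was 0 without wildtype array 1, wildtype array 2 or DM array 1. A second probe set of Dnaja1 had a difference of -0.18 in DM (adjusted p = 0.335). The largest difference in the list was that of Hspa1a, picked after its values were seen, with 6.83, 5.21 and 5.03 in DM and 4.18, 3.82 and 4.73 in wildtype (1.45 ± 0.47, adjusted p = 0.0508). The part of these genes in the members' values was not tested.

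Of 8 tested genes of the ovulatory response, which the luteinizing hormone surge is known to induce, 1 rose and 2 fell in DM and 2 rose and 1 fell in Bmp15-/-. The protease Adamts1 rose by 0.80 ± 0.24 in DM and 1.31 ± 0.24 in Bmp15-/-, the factor Runx1 fell by 0.95 ± 0.16 and 1.13 ± 0.16, and Has2, which makes hyaluronan, fell by 1.24 ± 0.33 in DM. The list medians were 0.07 in DM and 0.01 in Bmp15-/-.

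**Figure D4:**
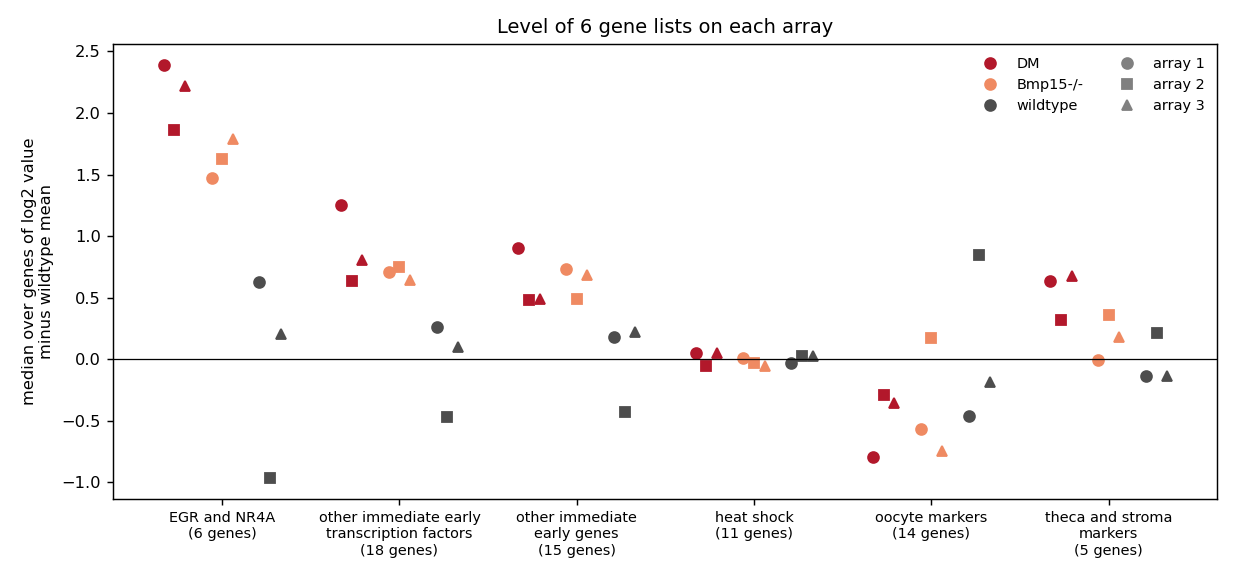
Median over the tested genes of a list of the log2 value minus that gene's wildtype mean (y axis), for 6 lists (x axis) on the DM, Bmp15-/- and wildtype arrays; each point is 1 array and the marker gives its number. Every mutant array lies above every wildtype array for the EGR and NR4A genes and for both lists of other immediate early genes, heat shock genes stay near 0, and wildtype array 2 is lowest for the immediate early lists and highest for oocyte markers.

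Markers of other cell types were read on the same arrays. The sums of linear values below weigh the brightest probe sets of a list most. Linear values of 14 tested oocyte markers summed to 555 to 877 in DM, 612 to 2080 in Bmp15-/- and 710 to 2961 in wildtype. They include Bmp15, which both mutants lack, and Gdf9, of which DM carries 1 intact copy. These sums therefore also carry the genotype itself. The list median was highest on wildtype array 2, where the members were lowest. It was next highest on Bmp15-/- array 2, where the members' median (1.62) lay between those of the other Bmp15-/- arrays (1.47 and 1.79). On that array Egr3, Nr4a2 and Nr4a3 were lowest in their genotype, Egr2 and Nr4a1 in between and Egr1 highest. Relative to wildtype means, the oocyte list median was -0.46, 0.84 and -0.18 on wildtype arrays 1 to 3. It was -0.80, -0.29 and -0.36 on the DM arrays. The members' medians, 0.63, -0.97 and 0.20 in wildtype and 2.39, 1.86 and 2.22 in DM, ran in the inverse order. In Bmp15-/- the oocyte list had -0.57, 0.17 and -0.75, and the members did not run inversely. With limma 0 of 14 oocyte markers were called in either mutant, against 1 in each at an unadjusted p under 0.05. Zp1, Kit and Nobox failed the filter on dim signal. The 5 tested theca and stroma markers summed to 883 to 1160 in DM, 635 to 697 in Bmp15-/- and 458 to 599 in wildtype. Of these, 3 rose and 1 fell (Pdgfrb, -0.37) in DM, the 3 being Acta2 (2.09 ± 0.19), Pdgfra (1.57 ± 0.19) and Col1a1 (0.54 ± 0.15, with -0.15 in a second probe set, adjusted p = 0.497), and 1 rose in Bmp15-/-, Pdgfra (0.92 ± 0.19), while the theca marker Cyp17a1 and the stroma markers Dcn and Lum failed the filter. The 5 tested surface epithelium markers summed to 939 to 976 in DM, 829 to 1052 in Bmp15-/- and 607 to 683 in wildtype, with Krt18 (1.17 ± 0.22) and Krt8 (0.55 ± 0.14) higher in DM and Krt8 (0.62 ± 0.14) in Bmp15-/-, and with Krt19 and Msln failing the filter.

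Of the 7 immune cell markers 3 were tested, at sums of 174 to 228 in DM, 174 to 229 in Bmp15-/- and 167 to 192 in wildtype, and Adgre1, Cd14, Itgam and Lyz2 failed the filter. Of the 6 endothelial markers 1 was tested, at 35 to 39 in DM, 37 to 44 in Bmp15-/- and 33 to 37 in wildtype, and Pecam1, Kdr, Tek, Emcn and Vwf failed it. The only erythroid marker tested, Alas2, fell by 2.59 ± 0.33 in DM and 1.98 ± 0.33 in Bmp15-/-. Of the 5 listed, Hba-a1 failed the filter and 3 had no probe set annotated to them alone. The 9 tested cumulus markers summed to 23680 to 25288 in DM, 24021 to 26029 in Bmp15-/- and 30357 to 31270 in wildtype. Of these, 1 rose and 3 fell in DM and 2 fell in Bmp15-/-, led in DM by Slc38a3 (1.24 ± 0.19, not shared by a second probe set at adjusted p = 0.984), Npr2 (-0.46 ± 0.09) and Foxl2 (-0.78 ± 0.18) and in Bmp15-/- by Npr2 (-0.49 ± 0.09) and Kctd14 (-0.71 ± 0.17). The 4 tested mural granulosa markers summed to 566 to 756 in DM, 563 to 657 in Bmp15-/- and 1091 to 1152 in wildtype. Kitl, which weighs most in the wildtype sum, was lower in both mutants (-1.31 ± 0.29 and -1.54 ± 0.29). Cd34 was higher in DM (1.27 ± 0.18). The median difference of the list was -0.09 in DM and 0.07 in Bmp15-/-. The part of the theca and stroma, epithelial, oocyte, cumulus and mural granulosa markers in the EGR and NR4A values was not tested.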

How the data were processed

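Cumulus cell RNA (10 ng per sample, amplified in 2 cycles per the labels' protocols) was measured on 9 Affymetrix arrays, 3 per genotype. The deposited values are on a log2 scale, and the authors' processing used RMA and the affy package per the submitters' processing notes, with versions not given in the sources used here. Of 45101 probe sets, 64 control probe sets and 17083 that did not exceed the 40th percentile of their own array on at least 3 of 9 arrays were set aside, leaving 27954. Genes were named from the platform annotation (34958 probe sets with 1 gene, 932 with several, 9211 with none) and 34754 matched the GRCm38.p6 gene table. A limma 3.58.1 model (R 4.3.3) with genotype as its term was fitted to all 9 arrays, with 6 residual degrees of freedom, moderated 2-sided tests and Benjamini-Hochberg adjustment over the 27954 probe sets. The model was tested on simulated data. The 22 gene lists (187 genes) were read by each gene's tested probe set with the highest mean. Named genes were all member probe sets, Egr4, the corepressors and retinoid X receptors, up to 3 called genes with the smallest p per list and comparison, and the 3 genes most like each member. Per the labels the samples are independent pools, and the number of arrays limits the precision. The members and lists were chosen with earlier results of these data known. Alternatives were another dim filter or none, other ways to combine probe sets, quantile normalization, a floor, another variance prior, a replicate block, leaving out arrays, and fits of 2 genotypes.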

Additional observations from a re-analysis of the deposited data

How the results depend on the processing

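Of 741 member changes recomputed under the 19 alternatives, 667 kept their direction and side of the threshold, 32 lost the call, 14 gained it and 28 changed sign. None of the 28 was called in either fit (adjusted p of at least 0.629 as reported and 0.593 under the alternative). In DM against wildtype, Egr3 (1436329_at) and both Egr2 probe sets kept the call throughout. The count called in Bmp15-/- against wildtype was 4 and became 2 with no filter on dim probe sets; leaving out 1 array at a time it ranged from 0 to 5, with 0 without Bmp15-/- array 3, 1 without Bmp15-/- array 1, Bmp15-/- array 2 or wildtype array 3, and 2 without wildtype array 2 or DM array 1. In DM against wildtype that range was 4 to 6. In DM against Bmp15-/- it was 0 to 0, and 1 was called without wildtype array 2 and DM array 2 together, an alternative chosen after seeing the data. The cause was not tested.

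Over all probe sets, 1767 were called in Bmp15-/- against wildtype, 565 to 2393 leaving out 1 array and 2855 with only these genotypes fitted. In DM against Bmp15-/- 536 were called, 38 with only these genotypes fitted, 73 without Bmp15-/- array 1, 81 without Bmp15-/- array 2, and 1261 without DM array 2. Of the calls, 66.6% were lower in DM and 67.6% in Bmp15-/-, against 54.6% and 52.7% after quantile normalization. Over all probe sets, samples with the same replicate number deviated together little (correlations of -0.11 to 0.15). These correlations cannot decide whether the numbers pair samples. In all 6 member probe sets called in DM, array 2 was the lowest of its genotype in wildtype and in DM. With a replicate block the SE was 0.31 against 0.52 for Egr3 (1436329_at), 0.20 against 0.31 for Nr4a2 (1455034_at) and 0.097 against 0.092 for Egr1. With the replicate block 6 member probe sets were called in DM against wildtype, 5 in Bmp15-/- against wildtype and 0 in DM against Bmp15-/-, and 6341, 1444 and 393 over all probe sets.

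The sign changes after quantile normalization were, for Nr4a2 1433422_at, 0.0046 in DM and 0.031 in Bmp15-/- against wildtype, for Egr3 1421486_at 0.0024 in DM against wildtype, and for Nr4a2 1433423_at 0.0026 in DM against Bmp15-/-. The others came from leaving out arrays. In DM against wildtype the leave-one-out values ran from -0.12 to 0.031 for Egr3 1421486_at and from -0.20 to 0.12 for Nr4a2 1433423_at. In Bmp15-/- against wildtype they ran from -0.086 to 0.035 for Nr4a2 1433422_at, from -0.18 to 0.12 for Nr4a2 1433423_at and from -0.033 to 0.17 for Nr4a3 1421080_at. In DM against Bmp15-/- they ran from -0.036 to 0.20 for Egr3 1421486_at, from -0.20 to 0.0067 for Nr4a3 1421080_at and from -0.95 to 0.54 for Nr4a3 1438796_at. For Nr4a2 in that comparison they ran from -0.076 to 0.045 (1433422_at), -0.13 to 0.10 (1433423_at), -0.38 to 0.24 (1447863_s_at), -0.15 to 0.38 (1450750_a_at) and -0.33 to 0.092 (1455034_at). Without wildtype array 2 and DM array 2 together, 1433423_at had 0.015, 1447863_s_at 0.24, 1455034_at 0.092 and 1438796_at 0.54.

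Of 1194 recomputed counts of called genes in the lists, 150 moved by over 1.5 times. In DM the range was 1 to 3 for SRF and its cofactors, 4 to 6 for cAMP, 0 to 2 for ERK kinases, 1 to 3 for EGR targets, 1 to 4 for the ovulatory response, 3 to 6 for cumulus and 2 to 4 for theca and stroma markers. In Bmp15-/- it was 0 to 2 for SRF and its cofactors, 0 to 4 for cAMP, 0 to 2 for EGR targets, 1 to 3 for the ovulatory response, 0 to 3 for cumulus and 0 to 2 for theca and stroma markers.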
